A study of Homo sapiens with 9 samples.

Results

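The 50 genes described here act in the G2 phase and in mitosis. They were taken from a fixed list of names, matched by symbol in the authors' deposited table, and all 50 were found among 60605 genes. The list was chosen with earlier results of these data known, so its shares beside those of all genes are descriptive. All 50 passed the filter on low counts, as did 20655 genes in all. They were measured by RNA sequencing in KG-1a, a human acute myeloid leukaemia cell line. The 9 libraries form 3 groups of 3: cells with wild-type PRMT2 (WT) and 2 PRMT2 knockout lines, called clone 1 and clone 2. Each line grew from a single knockout clone made with CRISPR/Cas9, and every group was cultured alike without drug treatment. Nothing in the labels tells if replicates came from separate cultures or if the WT cells were cloned, so p-values cover no more than library-to-library spread, which may be technical. In RNA from whole cultures, fewer cells in G2 and mitosis and less RNA per such cell cannot be told apart.

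Cells enter mitosis when the kinase CDK1, bound to cyclin B and freed of inhibitory phosphates by CDC25 phosphatases, becomes active. Chromosomes are then compacted by condensin and captured by spindle microtubules at kinetochores, and a checkpoint holds back the anaphase-promoting complex until every kinetochore is attached. Transcripts of most of these genes accumulate late in the cell cycle. FOXM1, B-MYB and the MuvB complex activate many of them, and the repressor form of MuvB, DREAM, silences them in resting cells. Because the transcripts are periodic, their level in a culture is widely read as a sign of how many cells are dividing.

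Many of these genes share short promoter elements. They are shown here because most of the 50 transcripts were lower in clone 2 than in clone 1. The CHR element, to which MuvB binds, was searched as TTTGAA or TTCGAA, and the CCAAT box, which NF-Y binds, as CCAAT, each on both strands. RefSeq promoters of 300 bases (250 before and 50 after the annotated start, build GRCh38.p14) were matched for 43 of the 50 genes, all but AURKA, BIRC5, BUB3, FOXM1, TPX2, TTK and UBE2C. A CHR match was in 33 of 43 (76.7%), against 16.4% of all 35116 promoters. A CCAAT match was in 31 of 43 (72.1%), against 34.6%, and both were in 25 (58.1%), against 6.38%. These matches are letters in a window and show no binding. Other spellings of the CHR element and other start sites were not searched. A gene counted as without a match may therefore still have the element. The stretches printed below end at the RefSeq start site or at the first annotated UTR base, with matches in capitals. MKI67 (chr10:128126424-128126573 on the minus strand) and ECT2 (chr3:172750576-172750681 on the plus strand) are 2 of the genes that fell most in clone 2. PLK1 (chr16:23678739-23678868 on the plus strand) and CCNB1 (chr5:69167000-69167134 on the plus strand) are central regulators. KIF20A (chr5:138178962-138179111 on the plus strand) and CDC25C (chr5:138338356-138338505 on the minus strand) differed most between the clones. In MKI67 the second TTTGAA overlaps the second CCAAT match, which reads ATTGG on this strand.
MKI67: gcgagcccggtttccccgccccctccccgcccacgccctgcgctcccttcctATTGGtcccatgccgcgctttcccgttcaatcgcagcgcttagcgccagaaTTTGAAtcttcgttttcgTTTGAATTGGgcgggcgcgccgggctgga
ECT2: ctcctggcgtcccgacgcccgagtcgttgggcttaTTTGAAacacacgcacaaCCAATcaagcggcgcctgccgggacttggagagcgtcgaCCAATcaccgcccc
PLK1: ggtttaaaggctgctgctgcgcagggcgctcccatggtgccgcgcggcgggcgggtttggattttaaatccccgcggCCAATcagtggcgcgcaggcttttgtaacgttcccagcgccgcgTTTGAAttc
CCNB1: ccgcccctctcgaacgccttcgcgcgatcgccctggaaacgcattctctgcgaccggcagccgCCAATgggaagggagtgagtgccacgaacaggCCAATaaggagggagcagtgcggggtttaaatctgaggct
KIF20A: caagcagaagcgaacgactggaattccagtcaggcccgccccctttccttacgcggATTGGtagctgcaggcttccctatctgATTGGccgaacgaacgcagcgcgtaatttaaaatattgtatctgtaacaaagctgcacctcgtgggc
CDC25C: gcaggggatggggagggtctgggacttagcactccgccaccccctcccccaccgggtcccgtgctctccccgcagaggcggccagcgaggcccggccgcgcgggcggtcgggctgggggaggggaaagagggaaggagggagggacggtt
MKI67, ECT2 and PLK1 hold both kinds of match, CCNB1 and KIF20A hold CCAAT matches only in the bases shown, and CDC25C holds neither. The difference of clone 2 from clone 1 described below had a median of -0.21 on the log2 scale both in the 33 genes with a CHR match (range -0.38 to -0.09) and in the 10 without (range -0.42 to -0.07). For the CCAAT box the medians were -0.21 with (31 genes) and -0.22 without (12 genes). In clone 1 against WT the medians were 0.12 with and 0.19 without a CHR match, and 0.12 with and 0.18 without a CCAAT match. Leaving out clone 1 replicate 1, which stands apart as described below, these clone 1 medians were 0.14 and 0.15 for CHR and 0.14 and 0.16 for CCAAT, and the medians between the clones were -0.21 and -0.20 for CHR and -0.20 and -0.21 for CCAAT. In clone 2 against WT they were -0.10 with and -0.08 without a CHR match, and -0.09 with and without a CCAAT match.

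PRMT2 itself (ENSG00000160310, chromosome 21, 46635595 to 46665124), the arginine methyltransferase gene that was targeted, was at 39.0 to 39.8 CPM in the WT libraries, 20.2 to 21.3 in clone 1 and 21.1 to 21.4 in clone 2. CPM are counts scaled to the library total. Its group means in the clones were 52.6% and 53.9% of that in WT, so its RNA was lower but present, and the series text says that the knockouts were also checked in DNA and protein. KG-1a markers CD34, PTPRC, RUNX1 and LYL1 were abundant (138.9 to 764.8 CPM as group means), while the myeloid markers CD33 and MPO were below 0.5 CPM and SPI1 was between 1.15 and 2.69 CPM. The 12 markers of other cell types summed to 1.33 to 2.11 CPM per library. HBB had 0 counts in all 9, which allows up to 0.0695 to 0.107 CPM before TMM scaling. KIT, the stem cell factor receptor, had group means of 6.16 CPM in WT, 6.95 in clone 1 and 20.0 in clone 2, and its part in the results was not tested. Each library had 28006342 to 43149410 counted read pairs. Clone 1 replicate 1 stood apart: 13.3% of its pairs mapped to several places, against 3.86% to 4.51% elsewhere, and its 2 mitochondrial rRNAs summed to 27302 CPM, against 29.9 to 92.9. Counts and medians that use clone 1 are therefore also given without it, and each call of the 50 genes that it changes is named.

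The mitosis and G2 genes were slightly higher than WT in clone 1 and slightly lower than WT in clone 2. In clone 1, 32 of 50 (64%) were higher at an adjusted p under 0.05 with edgeR's quasi-likelihood test, against 17.4% of all genes tested. None was lower with edgeR or DESeq2, and at an unadjusted p only ESPL1 was. In clone 2, 23 (46%) were lower, against 16.1% of all genes tested, and 1 gene, BUB3, was higher, against 14.4%. Among the 9517 genes with a mean of at least 10 CPM, a group that takes in 48 of the 50, the shares were 25.4% higher in clone 1 and 19.6% lower in clone 2. The median log2 fold change of the 50 genes was 0.14 in clone 1 and -0.09 in clone 2, and that of all genes tested was within 0.01 of 0 in both. These comparisons share the WT libraries. Changes were small: the 50 genes ranged from -0.12 to 0.39 in clone 1 and from -0.40 to 0.10 in clone 2, so that no gene came near the fold minimum of 1 (log2) that the series text uses, which 7.58% and 5.96% of all genes tested (2.42% and 1.87% of those with at least 10 CPM) passed with the adjusted p. With edgeR and DESeq2, no mitotic gene passed it at an unadjusted p either.

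**Figure D1:**
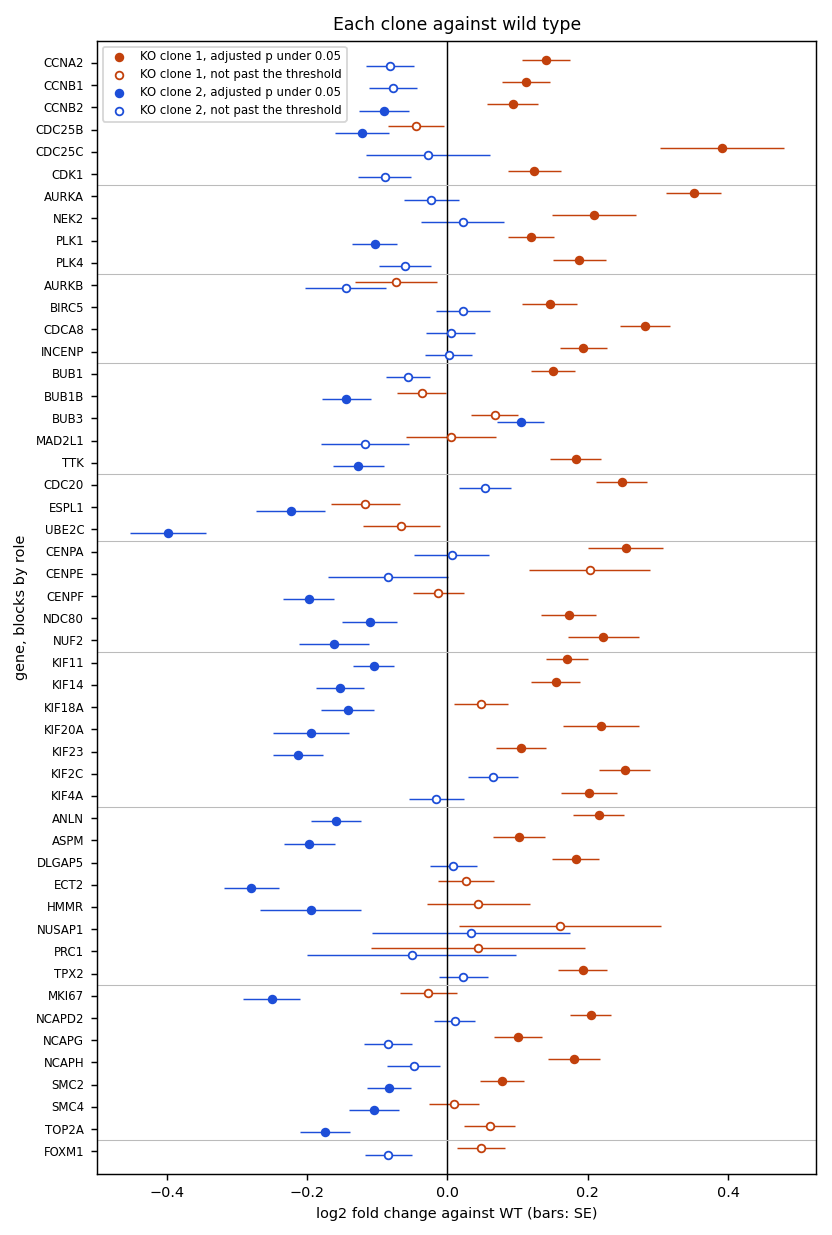
Log2 fold change against WT (x axis) of the 50 mitosis and G2 genes (y axis, in blocks by role), with clone 1 in orange, clone 2 in blue, SE as bars and filled points for an adjusted p under 0.05. Orange filled points (32) all lie right of 0, and 23 of the 24 blue ones lie left of it.

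The comparison of the clones with each other gave the larger differences. Clone 2 was lower than clone 1 in 42 of 50 genes (84%), against 12.6% of all genes tested and 18.1% of those with a mean of at least 10 CPM. None was higher with edgeR or DESeq2, at the adjusted or the unadjusted p, against 13.4% of all genes tested with edgeR. The median log2 difference was -0.21, a level 13.5% lower in clone 2, and that of all genes tested was 0.00. The clone 2 mean was below the clone 1 mean in 49 genes, BUB3 being the exception. In 44 genes the 3 libraries of clone 2 were all below the 3 of clone 1, against 18.8% of all genes tested. WT lay between the clone means in 31 genes. The counts of 49 and 31 were not taken over all genes tested. Without clone 1 replicate 1, clone 2 lay below clone 1 without overlap in 46 genes, and WT lay between the clone means in 30. With fewer libraries an overlap is less likely by construction, and the shares over all genes tested were not taken. Here too no mitotic gene passed the fold minimum with edgeR or DESeq2, at the adjusted or the unadjusted p, against 2.82% of all genes tested and 0.609% of those with at least 10 CPM. Without clone 1 replicate 1, 40 genes were lower in clone 2 than in clone 1 with a median of -0.20, and 29 were higher in clone 1 than in WT with a median of 0.14.

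**Figure D2:**
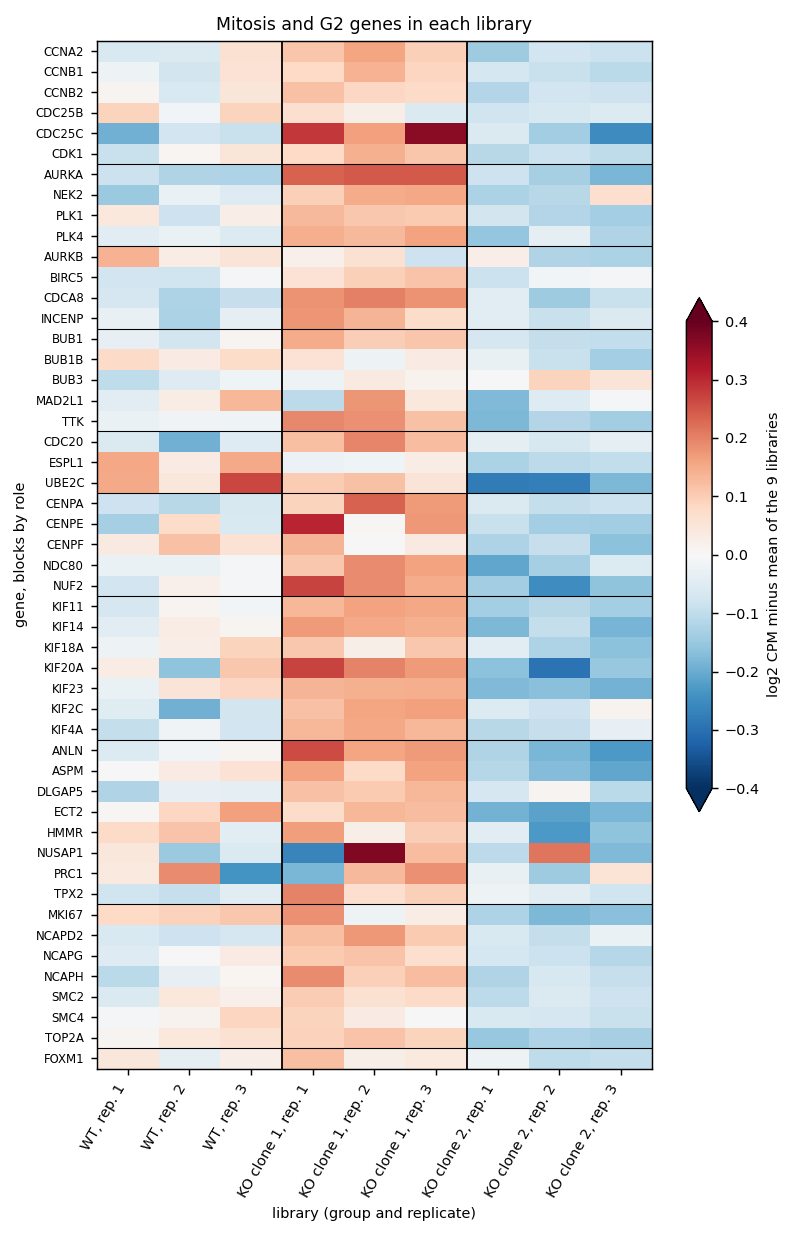
Log2 CPM of each of the 50 genes (rows, in blocks by role) in each of the 9 libraries (columns), as the difference from the gene's mean over the 9 libraries, with red above and blue below. The 3 columns of clone 1 are mostly red and the 3 of clone 2 mostly blue; NUSAP1 and PRC1, at 2.496 to 5.06 CPM, vary most within groups.

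The same order was seen when the genes were summed. The 50 genes took 0.767% to 0.771% of counts in the clone 1 libraries, 0.710% to 0.729% in the WT libraries and 0.654% to 0.665% in the clone 2 libraries, and the groups did not overlap. The median deviation of the 50 genes from their mean over 9 libraries was 0.11 to 0.13 (log2) in clone 1, -0.04 to 0.01 in WT and -0.11 to -0.10 in clone 2. The spread within a group (pooled SD 0.0153) was much smaller than the distance between groups. For 22 G1/S and S phase genes, among them the MCM helicase subunits and PCNA, the same measure overlapped between the groups, from -0.02 to 0.03 in clone 1, from -0.04 to 0.02 in WT and from -0.02 to 0.03 in clone 2.

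**Figure D3:**
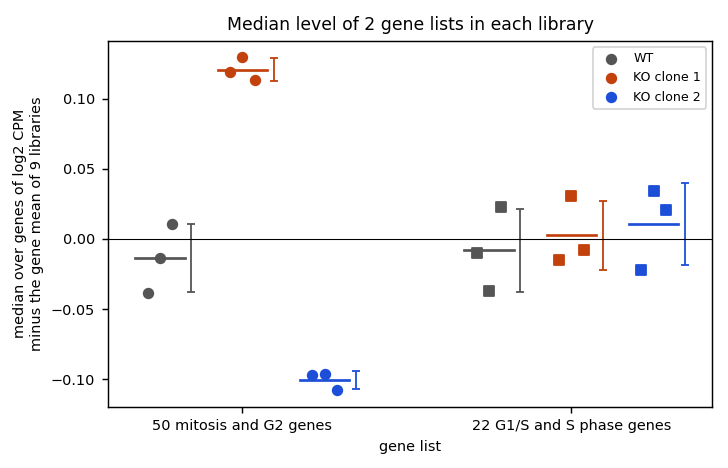
Median over genes of the log2 CPM minus the gene's 9-library mean (y axis) for each library (points), for the 50 mitosis and G2 genes (circles) and 22 G1/S and S phase genes (squares); horizontal lines are group means and the bars beside them SD (n = 3). The circles form 3 separate groups and the squares overlap around 0.

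Levels were compared between genes as CPM per kilobase of exon. In WT, MKI67 (89.7), TOP2A (87.1) and the spindle factor TPX2 (74.3) were the most abundant, followed by cyclin B1 (53.5), INCENP (51.9) and cyclin A2 (49.5). CDC25C (2.80), HMMR (4.20) and ESPL1 (4.40) were low, and PRC1 (0.536) and NUSAP1 (1.05) lowest. These last values need care. Another annotated gene on the same strand covers 86.8% of the exon bases of NUSAP1 (ENSG00000285920) and 57.6% of those of PRC1 (ENSG00000284946), and read pairs that match 2 genes are not counted for either; the part this plays in the low counts was not tested. Of the other 48 genes only BUB1B reached 10.2%.

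The 3 mitotic and S phase cyclins and CDK1 rose in clone 1, and of these 4 genes CCNB2 alone passed the test as lower than WT in clone 2. Of all genes tested, 17.4% rose in clone 1 and 16.1% fell in clone 2. CDK1 (ENSG00000170312, chromosome 10, 60778331 to 60794852), the kinase that drives mitotic entry, was at 78.2, 83.6 and 86.0 CPM in WT, 88.0, 91.9 and 89.9 in clone 1 and 77.0, 78.3 and 77.5 in clone 2. All clone 1 libraries were above all WT and clone 2 libraries, and WT and clone 2 overlapped. It rose by 0.12 on the log2 scale in clone 1 (SE 0.038, adjusted p = 0.00811), stood at -0.09 in clone 2 (SE 0.037, adjusted p = 0.0663), and was lower in clone 2 than in clone 1 by 0.21 (adjusted p = 2.16e-05). CCNB1 (ENSG00000134057, chromosome 5, 69167135 to 69178245), which encodes the mitotic cyclin B1, was at 129, 125 and 136 CPM in WT, 138, 144 and 139 in clone 1 and 125, 123 and 122 in clone 2. It rose by 0.11 in clone 1 (adjusted p = 0.00756), with -0.08 in clone 2 (adjusted p = 0.0782). CCNA2, the cyclin of S phase and G2, rose by 0.14 in clone 1 (adjusted p = 0.000937), with -0.08 in clone 2 (adjusted p = 0.0646). CCNB2 rose by 0.09 in clone 1 (adjusted p = 0.0388) and fell by 0.09 in clone 2 (adjusted p = 0.0489), and its 3 groups did not overlap. The phosphatases that activate CDK1 differed from each other. CDC25C (ENSG00000158402, chromosome 5, 138285269 to 138338355) showed the largest rise in clone 1 and the largest difference between the clones, though at a low level of 8.87, 9.60 and 9.52 CPM in WT, 12.3, 11.4 and 13.0 in clone 1 and 9.75, 9.21 and 8.51 in clone 2. Every clone 1 library was above the other 6, and WT and clone 2 overlapped. It rose by 0.39 in clone 1 (SE 0.088, adjusted p = 0.000386), stood at -0.03 in clone 2 (adjusted p = 0.857), and was lower in clone 2 than in clone 1 by 0.42 (SE 0.088, adjusted p = 0.000247). CDC25B, which starts CDK1 activation at centrosomes, was instead at -0.04 in clone 1 (adjusted p = 0.419) and fell by 0.12 in clone 2 (adjusted p = 0.014). When libraries were left out in turn, 5 calls were lost (adjusted p up to 0.248): CCNB2 in clone 1 without clone 1 replicate 1, 2 or 3, or WT replicate 1 or 2, CCNB1 in clone 1 without clone 1 replicate 2, or WT replicate 2, CDK1 in clone 1 without WT replicate 1, CCNB2 in clone 2 without clone 1 replicate 2 or 3, or clone 2 replicate 1, 2 or 3, or WT replicate 1 or 3, CDC25B in clone 2 without WT replicate 1 or 3. Calls were gained for CCNA2 in clone 2 without WT replicate 1 or 2, CDK1 in clone 2 without WT replicate 1, CCNB1 in clone 2 without WT replicate 2.

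The polo, aurora A and NEK2 kinases (AURKA, PLK1, PLK4 and NEK2) rose in clone 1 and were lower in clone 2 than in clone 1. Of all genes tested, 17.4% rose in clone 1 and 12.6% were lower in clone 2 than in clone 1. The aurora kinase AURKB, which passed in no comparison, is given below with the chromosomal passenger complex. AURKA (ENSG00000087586, chromosome 20, 56369389 to 56392337), the kinase of centrosome maturation and spindle assembly, was at 61.4, 59.9 and 59.8 CPM in WT, 76.6, 77.2 and 77.3 in clone 1 and 61.5, 59.4 and 57.3 in clone 2. The clone 1 libraries lay within 1 CPM of each other and above the rest, and WT and clone 2 overlapped. It rose by 0.35 in clone 1 (SE 0.039, adjusted p = 7.62e-10), with -0.02 in clone 2 (adjusted p = 0.727). The clone difference was -0.37 (SE 0.039, adjusted p = 3.96e-10). PLK1 (ENSG00000166851, chromosome 16, 23677656 to 23690367), which acts from mitotic entry to cytokinesis, was at 167, 154 and 166 CPM in WT, 178, 175 and 175 in clone 1 and 155, 150.0 and 148 in clone 2. It rose by 0.12 in clone 1 (adjusted p = 0.00295) and fell by 0.10 in clone 2 (adjusted p = 0.0113), where 1 clone 2 library lay within the WT range. PLK4, the centriole duplication kinase, rose by 0.19 in clone 1 (adjusted p = 8.91e-05), and the centrosomal kinase NEK2 rose by 0.21 (adjusted p = 0.00485). In clone 2 they were at -0.06 (adjusted p = 0.249) and 0.02 (adjusted p = 0.837). With any 1 of the libraries given here left out, 2 calls were lost (adjusted p up to 0.089): PLK1 in clone 2 without clone 2 replicate 3, or WT replicate 1 or 3, NEK2 between the clones without clone 1 replicate 3, or clone 2 replicate 1 or 2.

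In the chromosomal passenger complex, which corrects faulty attachments and directs cytokinesis, 3 of 4 subunits rose in clone 1. Of all genes tested, 17.4% did so. The kinase of the complex passed in neither comparison. CDCA8 (ENSG00000134690, chromosome 1, 37692481 to 37709719), the borealin subunit, was at 89.6, 86.2 and 88.1 CPM in WT, 106, 108 and 106 in clone 1 and 91.3, 85.1 and 88.3 in clone 2. It rose by 0.28 in clone 1 (SE 0.035, adjusted p = 1.13e-08), with 0.00 in clone 2 (adjusted p = 0.943), with WT and clone 2 overlapping. INCENP, the scaffold, rose by 0.19 (adjusted p = 9.64e-06) and BIRC5, survivin, by 0.15 (adjusted p = 0.00267) in clone 1. The kinase gene AURKB (ENSG00000178999, chromosome 17, 8204733 to 8210600) was at 30.9, 28.7 and 29.1 CPM in WT, 28.5, 29.3 and 26.5 in clone 1 and 28.6, 25.8 and 25.7 in clone 2. It was at -0.07 in clone 1 (adjusted p = 0.365). In clone 2 it was at -0.15, just short of the threshold (adjusted p = 0.0516, 0.0137 to 0.21 over 17 alternative settings), although its 3 libraries were below all WT libraries. AURKB did not differ detectably between the clones, at -0.07 (SE 0.059, adjusted p = 0.419). The call of BIRC5 between the clones was lost without clone 1 replicate 3, or clone 2 replicate 1 (adjusted p up to 0.0895). Calls were gained for AURKB in clone 2 without clone 1 replicate 2, or clone 2 replicate 1, or WT replicate 2.

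The 5 spindle checkpoint genes did not move as 1 group. TTK, the kinase at the top of the checkpoint, rose by 0.18 in clone 1 (adjusted p = 7.98e-05) and fell by 0.13 in clone 2 (adjusted p = 0.00584). BUB1 rose by 0.15 in clone 1 (adjusted p = 0.000139), with -0.06 in clone 2 (adjusted p = 0.192). BUB1B (ENSG00000156970, chromosome 15, 40161023 to 40221123), which encodes the inhibitor BUBR1, was at 112, 109 and 112 CPM in WT, 111, 105 and 109 in clone 1 and 104, 100.4 and 97.1 in clone 2. It was at -0.04 in clone 1 (adjusted p = 0.46) and fell by 0.14 in clone 2 (adjusted p = 0.000989), where all 3 libraries were below all WT libraries. BUB3 (ENSG00000154473, chromosome 10, 123154402 to 123170467), the shared partner of BUB1 and BUBR1, was at 233, 241 and 247 CPM in WT, 247, 257 and 252 in clone 1 and 249.95, 266 and 259 in clone 2. It was the one member of the 50 to rise in clone 2, by 0.10 (SE 0.033, adjusted p = 0.0134), against 0.07 in clone 1 (adjusted p = 0.116). MAD2L1 did not pass in any comparison, at 0.00 in clone 1 (adjusted p = 0.968) and -0.12 in clone 2 (adjusted p = 0.17). When libraries were left out in turn, 2 calls were lost (adjusted p up to 0.147): BUB3 in clone 2 without clone 2 replicate 2, or WT replicate 1, BUB1B between the clones without clone 1 replicate 1 or 3, or clone 2 replicate 2 or 3. Calls were gained for MAD2L1 between the clones without clone 1 replicate 1.

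Among the partners of the anaphase-promoting complex, UBE2C (ENSG00000175063, chromosome 20, 45812576 to 45816957) showed the largest fall of the 50 genes in clone 2. UBE2C is the ubiquitin-conjugating enzyme that starts chains on the substrates of this complex, and it was at 37.0, 34.3 and 40.1 CPM in WT, 35.7, 36.1 and 34.5 in clone 1 and 27.4, 27.6 and 29.4 in clone 2. The clone 2 libraries were all below the other 6, and WT and clone 1 overlapped. It fell by 0.40 in clone 2 (SE 0.054, adjusted p = 1.06e-07), with -0.07 in clone 1 (adjusted p = 0.385). CDC20, the activator of the complex, instead rose by 0.25 in clone 1 (adjusted p = 4.2e-07), with 0.05 in clone 2 (adjusted p = 0.298). ESPL1 (ENSG00000135476, chromosome 12, 53268299 to 53293638), the separase that cuts cohesin, was at 40.2, 36.9 and 40.1 CPM in WT, 35.5, 35.7 and 36.8 in clone 1 and 33.1, 33.6 and 33.7 in clone 2. Both clones lay below WT without overlap, clone 2 lower. The fall passed the test in clone 2, at -0.22 (adjusted p = 0.000328), and did not in clone 1, at -0.12 (adjusted p = 0.0633). ESPL1 was also the 1 gene of the 50 past an adjusted p under 0.05 in the authors' deposited table, which compares both clones together with WT (log2 fold change -0.17, adjusted p = 0.0297). Of all genes with an adjusted p there, 7.03% were higher and 8.51% lower. The log2 fold changes of the 50 genes in the authors' deposited table, which the series text says were shrunken with apeglm, lay between -0.22 and 0.20 with a median of 0.03. With 1 library left out, calls were gained for ESPL1 in clone 1 without WT replicate 2.

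Of the 5 centromere and kinetochore genes, 3 rose in clone 1 and 3 fell in clone 2. The shares over all genes tested were 17.4% and 16.1%. CENPA (ENSG00000115163, chromosome 2, 26764289 to 26801067), the histone H3 variant of centromeres, was at 28.1, 27.5 and 28.4 CPM in WT, 31.6, 34.98 and 33.4 in clone 1 and 28.5, 27.8 and 28.005 in clone 2. It rose by 0.25 in clone 1 (SE 0.054, adjusted p = 0.000189), with 0.01 in clone 2 (adjusted p = 0.95). NUF2 (ENSG00000143228, chromosome 1, 163266576 to 163355764), a subunit of the NDC80 complex that grips microtubules, was at 34.7, 37.1 and 36.5 CPM in WT, 44.1, 41.7 and 40.6 in clone 1 and 33.2, 30.8 and 32.8 in clone 2. The 3 groups did not overlap: it rose by 0.22 in clone 1 (SE 0.050, adjusted p = 0.000413) and fell by 0.16 in clone 2 (SE 0.050, adjusted p = 0.0114). Its partner NDC80 did the same at 0.17 (adjusted p = 0.000462) and -0.11 (adjusted p = 0.0281, 0.00798 to 0.18 over the alternative settings, with DESeq2 and upper quartile scaling past 0.05). CENPF, a large outer kinetochore protein, was at -0.01 in clone 1 (adjusted p = 0.829) and fell by 0.20 in clone 2 (adjusted p = 2.98e-05). The motor CENPE, given in full because its spread was seen to be wide, was at 176, 204 and 185 CPM in WT, 239, 194 and 218 in clone 1 and 182, 176 and 176 in clone 2. It passed in neither clone (adjusted p = 0.124 and adjusted p = 0.546), although in clone 1 its p-value ran from 2.89e-06 to 0.279 over the 17 alternative settings and passed without the low-count filter, and the clone difference of -0.29 was at the threshold (adjusted p = 0.0543). The p-value of the clone difference ran from 1.27e-11 to 0.144 over these settings, and its clone 2 libraries were all below those of clone 1. With any 1 of the libraries given here left out, 2 calls were lost (adjusted p up to 0.18): NDC80 in clone 2 without clone 2 replicate 1 or 2, or WT replicate 3, NUF2 in clone 2 without clone 2 replicate 2, or WT replicate 2. Calls were gained for CENPE in clone 1 without clone 1 replicate 2, CENPE between the clones without clone 1 replicate 1 or 2, or WT replicate 2.

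**Figure D4:**
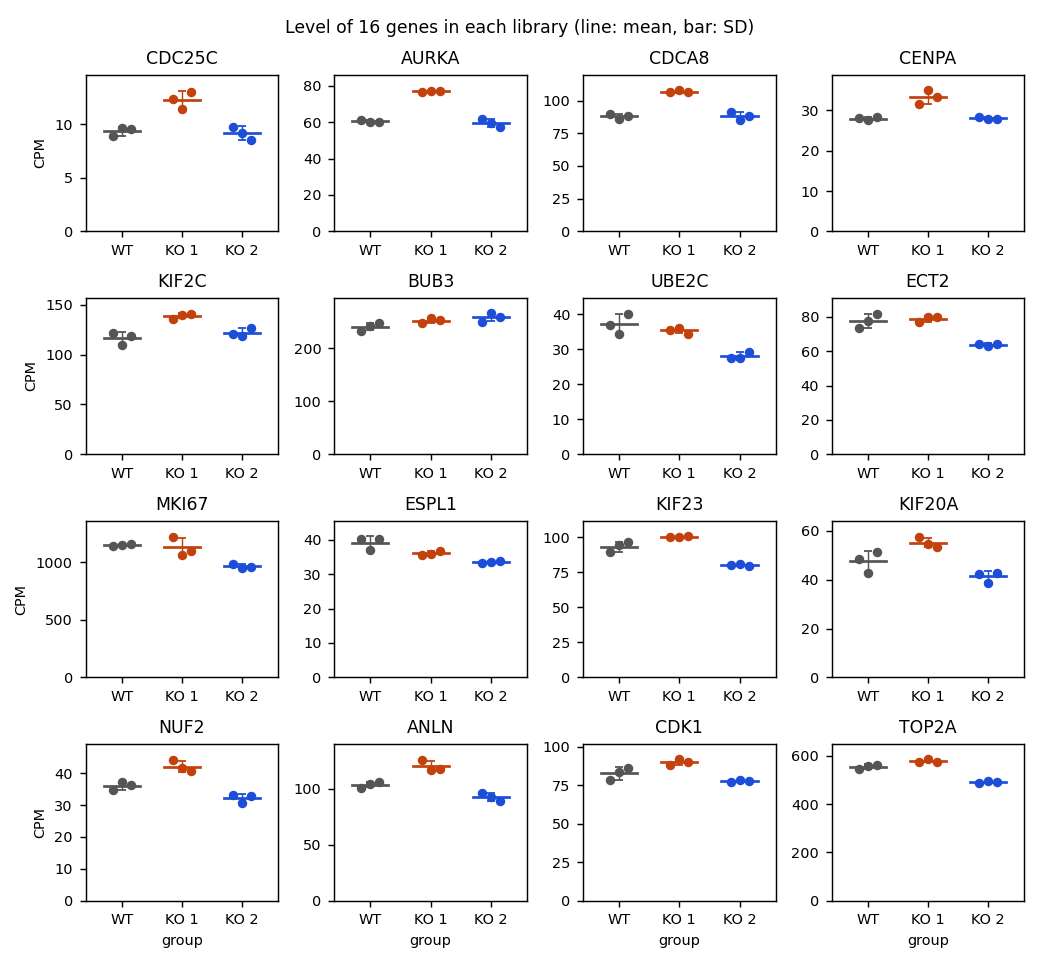
CPM (y axis, from 0) of 16 of the genes in each library of WT, clone 1 (KO 1) and clone 2 (KO 2), with points for libraries, lines for means and bars for SD (n = 3). AURKA, CDCA8 and CDC25C are highest in clone 1, UBE2C, ECT2 and MKI67 are lowest in clone 2, and NUF2, ANLN and KIF23 have 3 separate levels.

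The 7 kinesins, motors that move along, push apart or take down microtubules, differed between the clones. All 7 were lower in clone 2 than in clone 1, between -0.41 and -0.19, with no overlap of libraries. Over all genes tested, 12.6% were lower and 18.8% lay below without overlap. Of the 7, 6 rose in clone 1 and 5 fell in clone 2, against 17.4% and 16.1% of all genes tested. KIF20A (ENSG00000112984, chromosome 5, 138178719 to 138187723), a motor of cytokinesis, was at 48.5, 42.6 and 51.3 CPM in WT, 57.4, 54.6 and 53.6 in clone 1 and 42.4, 38.8 and 42.9 in clone 2. It rose by 0.22 in clone 1 (SE 0.054, adjusted p = 0.00151) and fell by 0.19 in clone 2 (SE 0.054, adjusted p = 0.0054), where 1 WT library lay within the range of clone 2. KIF23 (ENSG00000137807, chromosome 15, 69414246 to 69448427), the motor of the centralspindlin complex, was at 89.4, 94.3 and 96.4 CPM in WT, 100.02, 100.4 and 101 in clone 1 and 80.6, 81.1 and 79.9 in clone 2. Its libraries agreed closely within each clone, and the 3 groups did not overlap. It rose by 0.10 in clone 1 (adjusted p = 0.0168) and fell by 0.21 in clone 2 (SE 0.035, adjusted p = 4.62e-06). KIF11, the motor that separates the spindle poles, and KIF14 also went both ways, at 0.17 (adjusted p = 9.17e-06) and 0.15 (adjusted p = 0.00038) in clone 1 and -0.11 (adjusted p = 0.00499) and -0.15 (adjusted p = 0.000478) in clone 2. KIF2C (ENSG00000142945, chromosome 1, 44739818 to 44767767), a kinesin that takes microtubules apart at centromeres, was the kinesin with the largest rise in clone 1. It was at 121, 109.8 and 119 CPM in WT, 136, 140.1 and 140.5 in clone 1 and 121, 118 and 127 in clone 2. It rose by 0.25 in clone 1 (SE 0.036, adjusted p = 1.8e-07), with 0.07 in clone 2 (adjusted p = 0.178). KIF4A, a chromosome-bound motor, rose by 0.20 in clone 1 (adjusted p = 5.95e-05), and KIF18A, which dampens chromosome movement, fell by 0.14 in clone 2 (adjusted p = 0.00317). Of these, 2 calls were lost when 1 library was left out (adjusted p up to 0.131): KIF23 in clone 1 without clone 1 replicate 3, or WT replicate 1, KIF20A in clone 2 without WT replicate 3.

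Among 8 spindle and cytokinesis proteins, 4 rose in clone 1 and 4 fell in clone 2, and ANLN and ASPM did both. Over all genes tested, 17.4% rose in clone 1 and 16.1% fell in clone 2. ANLN (ENSG00000011426, chromosome 7, 36389821 to 36453791), anillin of the contractile ring, was at 101, 104 and 106 CPM in WT, 126, 117 and 118 in clone 1 and 96.7, 92.5 and 89.5 in clone 2. The 3 groups did not overlap: it rose by 0.22 in clone 1 (SE 0.036, adjusted p = 4.46e-06) and fell by 0.16 in clone 2 (SE 0.036, adjusted p = 0.000515). ASPM (ENSG00000066279, chromosome 1, 197084121 to 197146694), a spindle pole protein, was at 431, 440.4 and 448 CPM in WT, 481, 454 and 481 in clone 1 and 397, 381 and 373 in clone 2. It rose by 0.10 in clone 1 (adjusted p = 0.0264) and fell by 0.20 in clone 2 (adjusted p = 3.66e-05). ECT2 (ENSG00000114346, chromosome 3, 172750682 to 172821474), the exchange factor that switches on RhoA at the division plane, was at 73.3, 77.3 and 81.9 CPM in WT, 76.8, 80.2 and 79.6 in clone 1 and 64.1, 63.0 and 64.4 in clone 2. It fell by 0.28 in clone 2 (SE 0.040, adjusted p = 2.4e-07), with 0.03 in clone 1 (adjusted p = 0.666), so that WT and clone 1 overlapped above clone 2. TPX2, the activator of AURKA on spindles, rose by 0.19 in clone 1 (adjusted p = 1.79e-05) and DLGAP5, a spindle assembly factor, by 0.18 (adjusted p = 1.89e-05), with 0.02 (adjusted p = 0.69) and 0.01 (adjusted p = 0.886) in clone 2. HMMR, a spindle-associated hyaluronan receptor, fell by 0.19 in clone 2 (adjusted p = 0.036). NUSAP1 and PRC1 were too low to resolve changes of this size, with SE of 0.141 to 0.153. PRC1 (ENSG00000198901, chromosome 15, 90966040 to 90995629), the bundler of the central spindle, was at 3.03, 3.36 and 2.496 CPM in WT, 2.598, 3.23 and 3.34 in clone 1 and 2.88, 2.67 and 3.06 in clone 2, and all 3 groups overlapped. When libraries were left out in turn, 3 calls were lost (adjusted p up to 0.182): ASPM in clone 1 without clone 1 replicate 3, or WT replicate 1, HMMR in clone 2 without clone 2 replicate 2 or 3, or WT replicate 1 or 2, HMMR between the clones without clone 1 replicate 1, or clone 2 replicate 2.

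All 7 genes of chromosome structure and proliferation were lower in clone 2 than in clone 1, between -0.23 and -0.11, with no overlap of libraries. Over all genes tested, 12.6% were lower in this comparison and 18.8% lay below without overlap. MKI67 (ENSG00000148773, chromosome 10, 128096659 to 128126423), which encodes the Ki-67 antigen used to stain dividing cells, was at 1142, 1152 and 1162 CPM in WT, 1226, 1065 and 1101 in clone 1 and 991, 954 and 961 in clone 2. All clone 2 libraries were below all others. It fell by 0.25 in clone 2 (SE 0.041, adjusted p = 3.71e-06), with -0.03 in clone 1 (adjusted p = 0.661). Without clone 1 replicate 1, the highest MKI67 library, MKI67 was at -0.09 in clone 1 (adjusted p = 0.0227 with edgeR), a fall past the threshold, while over all 17 alternative settings the p-value ran from 0.0227 to 0.966. TOP2A (ENSG00000131747, chromosome 17, 40388525 to 40417896), the topoisomerase that untangles sister chromosomes, was at 545, 557 and 564 CPM in WT, 576, 586 and 575 in clone 1 and 487, 497 and 493 in clone 2. It fell by 0.17 in clone 2 (SE 0.036, adjusted p = 0.000141), with 0.06 in clone 1 (adjusted p = 0.204), although its clone 1 libraries were all above WT. All 5 condensin genes were lower in clone 2 than in clone 1. NCAPD2 (ENSG00000010292, chromosome 12, 6493356 to 6531955), a condensin I subunit, was at 178, 176 and 178 CPM in WT, 202, 209.8 and 200.3 in clone 1 and 178, 174 and 183 in clone 2. It rose by 0.20 in clone 1 (SE 0.030, adjusted p = 3.55e-07), with 0.01 in clone 2 (adjusted p = 0.846). NCAPH and NCAPG, the other condensin I subunits measured, rose by 0.18 (adjusted p = 0.00014) and 0.10 (adjusted p = 0.018) in clone 1. The core subunit SMC4 fell by 0.10 in clone 2 (adjusted p = 0.0226). SMC2 rose by 0.08 in clone 1 (adjusted p = 0.0484) and fell by 0.08 in clone 2 (adjusted p = 0.0385), both close to the threshold. With any 1 of the libraries given here left out, 5 calls were lost (adjusted p up to 0.297): SMC2 in clone 1 without clone 1 replicate 1, 2 or 3, or clone 2 replicate 2 or 3, or WT replicate 1 or 3, NCAPG in clone 1 without clone 1 replicate 1 or 2, or WT replicate 1, SMC2 in clone 2 without clone 1 replicate 1 or 3, or clone 2 replicate 1 or 3, or WT replicate 2 or 3, SMC4 in clone 2 without clone 2 replicate 2 or 3, or WT replicate 3, SMC4 between the clones without clone 1 replicate 1, or clone 2 replicate 3. Calls were gained for MKI67 in clone 1 without clone 1 replicate 1, NCAPG in clone 2 without clone 2 replicate 1, or WT replicate 1.

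FOXM1 (ENSG00000111206, chromosome 12, 2857680 to 2877174), the transcription factor of G2 and M genes, was at 135, 128 and 133 CPM in WT, 142, 133 and 135 in clone 1 and 129, 122 and 123 in clone 2. It passed in neither clone against WT, at 0.05 (adjusted p = 0.305) and -0.08 (adjusted p = 0.0575), and was lower in clone 2 than in clone 1 by 0.13 (adjusted p = 0.00296). Over the 17 alternative settings this last p-value ran from 0.000488 to 0.0509. The call of FOXM1 between the clones was lost without clone 1 replicate 1 (adjusted p up to 0.0509). Calls were gained for FOXM1 in clone 2 without clone 2 replicate 1, or WT replicate 2.

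Direction against WT was opposite in the clones for 12 genes that passed the test in both: CCNB2, PLK1, TTK, NUF2, NDC80, KIF11, KIF14, KIF20A, KIF23, ANLN, ASPM and SMC2. Of all genes tested 0.668% did so, and of those with a mean of at least 10 CPM 1.2%. The comparisons share the WT libraries. TTK, KIF11, KIF14 and ANLN kept both calls whichever library was left out, and the other 8 lost at least 1 call against WT, through the libraries named above for each. Without clone 1 replicate 1, 10 genes had opposite calls. Between the clones, 6 of the 42 calls were lost in at least 1 fit that left out a library. The genes with the largest differences, AURKA, CDC25C, KIF20A, NUF2 and ANLN, stayed past the threshold in every such fit.

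The genes lie on 18 chromosomes, and the medians of the genes near them were spread on both sides of 0. For each gene the median was taken over the 20 nearest tested genes, or 19 where 1 of the 20 was itself among the 50. For clone 2 against clone 1 these medians ran from -0.18 to 0.22 with a middle value of -0.01, and 49 of the 50 genes were below their own neighbours' median. In clone 1 against WT the neighbour medians ran from -0.14 to 0.15, and 40 genes were above their own. In clone 2 against WT the neighbour medians ran from -0.22 to 0.18, and 38 genes were below their own.

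Other genes of the mitotic machinery were counted in lists of related genes, against the shares over all genes tested: 17.4% higher and 18.8% lower in clone 1, 14.4% and 16.1% in clone 2, and 13.4% and 12.6% in clone 2 against clone 1. Without clone 1 replicate 1 these shares were 15.3% and 17.3% in clone 1 and 11.7% and 10.5% in clone 2 against clone 1. Of 37 other kinetochore and centromere genes, 18 (48.6%) rose and 4 (10.8%) fell in clone 1, 1 (2.7%) rose and 4 (10.8%) fell in clone 2, and 19 (51.4%) were lower and 2 (5.41%) higher in clone 2 than in clone 1. The medians were 0.10, -0.04 and -0.17, and without clone 1 replicate 1 15 rose and 5 fell in clone 1 and 21 were lower and 3 higher in clone 2 than in clone 1. The shares that fell in either clone were below those over all genes. CENPH and SPC25, both of the kinetochore, rose in clone 1 by 0.41 (adjusted p = 1.48e-06) and 0.38 (adjusted p = 4.81e-06). PMF1, a kinetochore subunit, was lower in both clones, at -0.31 (adjusted p = 7.1e-06) and -0.26 (adjusted p = 0.000147). HJURP, the CENPA chaperone, went up in clone 1 and down in clone 2, at 0.10 (adjusted p = 0.0255) and -0.17 (adjusted p = 0.000132).

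Of 33 other spindle and cytokinesis genes tested, 20 (60.6%) rose and 3 (9.09%) fell in clone 1, 4 (12.1%) rose and 8 (24.2%) fell in clone 2, and 21 (63.6%) were lower and none higher in clone 2 than in clone 1. The medians were 0.15, -0.04 and -0.16, and without clone 1 replicate 1 20 rose and 1 fell in clone 1 and 19 were lower and 0 higher in clone 2 than in clone 1. CKAP2L, a spindle protein, was at 100.3 CPM in WT, 155 in clone 1 and 109 in clone 2, and rose in both (adjusted p = 1.48e-18 and adjusted p = 0.00534). PSRC1, a spindle-associated protein, was lower in both clones, at -0.32 (adjusted p = 0.0146) and -0.28 (adjusted p = 0.0321). DEPDC1 was at 0.16 in clone 1 (adjusted p = 0.00403) and at -0.23 in clone 2 (adjusted p = 8.43e-05). Of 19 other condensin and cohesin genes, 11 (57.9%) rose and none fell in clone 1, 2 (10.5%) rose and 2 (10.5%) fell in clone 2, and 12 (63.2%) were lower and none higher in clone 2 than in clone 1. The medians were 0.10, 0.01 and -0.10, and without clone 1 replicate 1 9 rose and 0 fell in clone 1 and 9 were lower and 1 higher in clone 2 than in clone 1. CDCA5, sororin, and SGO1, shugoshin, both protectors of sister chromatid cohesion, rose in clone 1 by 0.32 (adjusted p = 1.73e-08) and 0.31 (adjusted p = 2.11e-06). The cohesin release factor WAPL rose in both clones, by 0.10 (adjusted p = 0.0113) and 0.10 (adjusted p = 0.0101). All p-values are adjusted over the genes tested with edgeR.

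**Figure D5:**
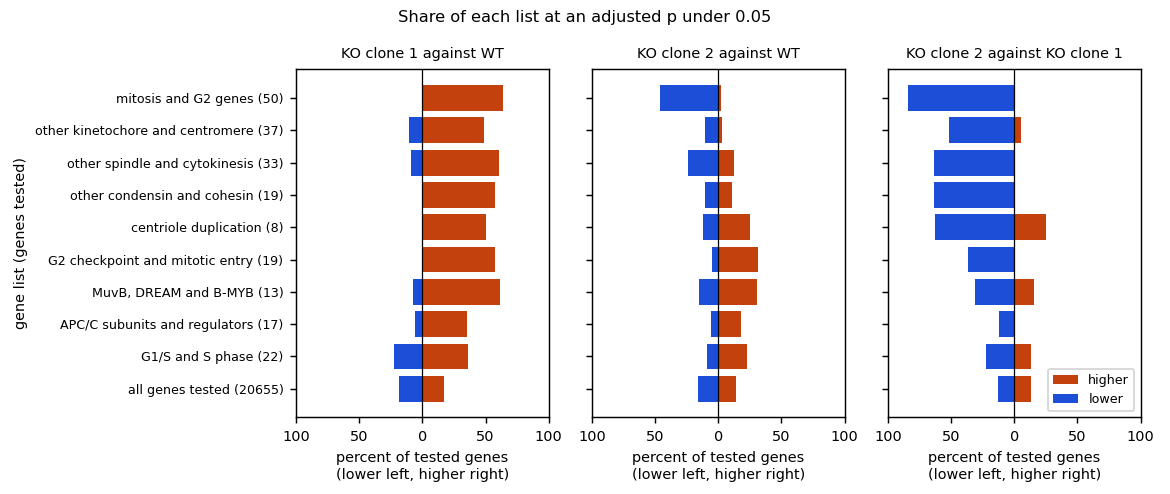
Percent of tested genes of each list (y axis, number tested in brackets) that were higher (orange, to the right) or lower (blue, to the left) at an adjusted p under 0.05 in the 3 comparisons. In clone 2 against clone 1, 84% of the mitosis and G2 genes were lower, against 22.7% of the G1/S and S phase genes and 12.6% of all genes tested.

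Regulators of mitotic entry and exit were measured too. Of 19 G2 checkpoint and mitotic entry genes, 11 (57.9%) rose and none fell in clone 1, 6 (31.6%) rose and 1 (5.26%) fell in clone 2, and 7 (36.8%) were lower and none higher in clone 2 than in clone 1. The medians were 0.15, 0.04 and -0.08, and without clone 1 replicate 1 10 rose and 0 fell in clone 1 and 6 were lower and 0 higher in clone 2 than in clone 1. MASTL and BORA, regulators of mitotic entry, rose in clone 1 by 0.38 (adjusted p = 1.34e-07) and 0.36 (adjusted p = 1.32e-07). The CDK inhibitor CDKN1A changed by -0.37 in clone 2 (adjusted p = 0.00281). SFN, a 14-3-3 protein, was higher in both clones but at only 0.245 CPM in WT, 0.703 in clone 1 and 0.537 in clone 2. Of 17 subunits and regulators of the anaphase-promoting complex, 6 (35.3%) rose and 1 (5.88%) fell in clone 1, 3 (17.6%) rose and 1 (5.88%) fell in clone 2, and 2 (11.8%) were lower and none higher in clone 2 than in clone 1. The medians were 0.07, 0.04 and -0.05, and without clone 1 replicate 1 5 rose and 1 fell in clone 1 and 2 were lower and 0 higher in clone 2 than in clone 1. The subunit gene ANAPC4 was lower in both clones, at -0.32 (adjusted p = 2.31e-06) and -0.25 (adjusted p = 8.9e-05). The inhibitor FBXO5 rose by 0.19 in clone 1 (adjusted p = 0.000113). The 17.6% that rose in clone 2 and the 11.8% lower between the clones are close to the shares over all genes. Of 8 centriole duplication genes, 4 (50%) rose and none fell in clone 1, 2 (25%) rose and 1 (12.5%) fell in clone 2, and 5 (62.5%) were lower and 2 (25%) higher in clone 2 than in clone 1. The medians were 0.05, -0.04 and -0.13, and without clone 1 replicate 1 3 rose and 0 fell in clone 1 and 4 were lower and 2 higher in clone 2 than in clone 1. STIL rose by 0.27 in clone 1 (adjusted p = 1.36e-07), and CEP152 rose by 0.43 in clone 2 (adjusted p = 3.78e-12).

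Genes of the complexes that control these transcripts were also measured. Of 13 MuvB, DREAM and B-MYB genes, 8 (61.5%) rose and 1 (7.69%) fell in clone 1, 4 (30.8%) rose and 2 (15.4%) fell in clone 2, and 4 (30.8%) were lower and 2 (15.4%) higher in clone 2 than in clone 1. The medians were 0.12, 0.02 and -0.06, and without clone 1 replicate 1 8 rose and 1 fell in clone 1 and 3 were lower and 2 higher in clone 2 than in clone 1. The 15.4% that fell in clone 2 and the 15.4% higher between the clones are close to the shares over all genes. E2F5, a repressor-type E2F, was at 19.8 CPM in WT, 26.0 in clone 1 and 34.5 in clone 2, and rose by 0.39 in clone 1 (adjusted p = 1.22e-06) and 0.80 in clone 2 (adjusted p = 5.7e-15). It was higher in clone 2 than in clone 1 by 0.41 (adjusted p = 3.62e-07). LIN9 and LIN52, core MuvB subunits, rose in clone 1 by 0.21 (adjusted p = 0.0105) and 0.24 (adjusted p = 0.00152). RBL2, the pocket protein p130, changed by -0.24 in clone 2 (adjusted p = 1.93e-06), and MYBL2, B-MYB, by -0.11 in clone 1 (adjusted p = 0.00539). Among 22 G1/S and S phase genes, 8 (36.4%) rose and 5 (22.7%) fell in clone 1, 5 (22.7%) rose and 2 (9.09%) fell in clone 2, and 5 (22.7%) were lower and 3 (13.6%) higher in clone 2 than in clone 1. The medians were 0.02, 0.03 and -0.01, and without clone 1 replicate 1 8 rose and 2 fell in clone 1 and 5 were lower and 3 higher in clone 2 than in clone 1. RRM2, the ribonucleotide reductase subunit, rose in clone 1 with no detected change in clone 2, at 210.1 CPM in WT, 265 in clone 1 and 209.6 in clone 2 (adjusted p = 1.62e-11 and adjusted p = 0.959). Cyclin E1 (CCNE1) fell in clone 1, at 17.98 CPM in WT, 15.01 in clone 1 and 19.2 in clone 2 (adjusted p = 0.00488 in clone 1 and adjusted p = 0.333 in clone 2). Whether the lists differ from each other was not tested.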

How the data were processed

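Per the labels and the series text, the authors aligned paired reads with STAR in 2-pass mode to GRCh38 and deposited raw counts for each gene and strand. STAR and annotation versions are not given in the sources used here. They also deposited a DESeq2 table of log2 fold changes (shrunken with apeglm) and p-values for both clones together against WT, whose 9 columns of normalised counts were not used. One strand held 92.0% to 92.3% of stranded counts, so its counting was used (28006342 to 43149410 pairs per library). Counts were fitted in R 4.3.3 with edgeR 4.0.16: filterByExpr, TMM scaling, 1 coefficient per group over all 9 libraries, robust quasi-likelihood F tests, and Benjamini-Hochberg adjustment over 20655 genes. SE was obtained from each log2 fold change and its F statistic. The fit was tested on simulated data. STAR's rows for unmapped, multimapped, ambiguous and gene-free pairs were left out, so that 25.9% to 29.6% of pairs were counted. Exon lengths and positions came from GENCODE release 44 (GRCh38). Genes with full values were the 5 largest passing rises and falls per comparison plus 1 gene per role and the most and least abundant per length. Genes of the other lists were named from the 3 largest passing changes per direction. The members and lists were chosen with earlier results of these data known. Alternatives were RLE and upper quartile scaling, no filter, DESeq2 1.42.0, 2-group fits, unstranded counts, no mitochondrial genes, a replicate block and leaving out each library. Same-numbered replicates did not deviate together (correlations across genes of -0.0137 to 0.0122).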

Additional observations from a re-analysis of the deposited data

Results flagged for a closer look

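The effects of the clones against the same WT libraries differed for 42 of the 50 genes, by the test of clone 2 against clone 1 itself (edgeR, adjusted p under 0.05). In every case clone 2 was lower, as it was for 12.6% of all genes tested. The values below are log2 differences, clone 2 minus clone 1, and none is explained here.

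Among cyclins, CDK1 and CDC25C, CDC25C was at -0.42, CCNA2 at -0.22, CDK1 at -0.21, CCNB1 at -0.19 and CCNB2 at -0.18. Among the mitotic kinases, AURKA was at -0.37, PLK4 at -0.25, PLK1 at -0.22 and NEK2 at -0.19. In the passenger complex, CDCA8 was at -0.28, INCENP at -0.19 and BIRC5 at -0.12. In the spindle checkpoint, TTK was at -0.31, BUB1 at -0.21 and BUB1B at -0.11. Of the partners of the anaphase-promoting complex, UBE2C was at -0.33 and CDC20 at -0.19. For each of the 42 genes the 3 clone 2 libraries were below the 3 clone 1 libraries. That largely follows from the test on the same libraries that picked them. Of the 50 genes taken whole, 44 lay below without overlap, against 18.8% of all genes tested. At centromeres and kinetochores, NUF2 was at -0.38, NDC80 at -0.28, CENPA at -0.25 and CENPF at -0.18. Of the kinesins, KIF20A was at -0.41, KIF23 at -0.32, KIF14 at -0.31, KIF11 at -0.28, KIF4A at -0.22, KIF18A at -0.19 and KIF2C at -0.19. Of the spindle and cytokinesis proteins, ANLN was at -0.37, ECT2 at -0.31, ASPM at -0.30, HMMR at -0.24, DLGAP5 at -0.17 and TPX2 at -0.17. For chromosome structure and Ki-67, TOP2A was at -0.23, NCAPH at -0.23, MKI67 at -0.22, NCAPD2 at -0.19, NCAPG at -0.19, SMC2 at -0.16 and SMC4 at -0.11. The transcription factor FOXM1 was at -0.13.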

How the results depend on the processing

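No call of the 50 genes changed direction in any alternative. Leaving out each library in turn gave 26 to 32 genes higher and 0 to 1 lower in clone 1 (median 0.13 to 0.16), 0 to 1 higher and 16 to 24 lower in clone 2 (median -0.11 to -0.075), and 39 to 43 lower in clone 2 than in clone 1 (median -0.22 to -0.20). PRMT2 stayed between -0.95 and -0.91 in clone 1 and between -0.90 and -0.88 in clone 2. The 1 gene lower in clone 1 was MKI67 without clone 1 replicate 1 and ESPL1 without WT replicate 2. Upper quartile scaling moved the clone 1 median from 0.14 to 0.17; it moved the median of all genes by 0.03 or less. With a replicate block, 28 genes were lower in clone 2 in place of 23, 32 were higher in clone 1 and 42 lower in clone 2 than in clone 1. The numbers did not pair the samples. Other settings gave 29 to 33 genes higher in clone 1, 19 to 24 lower in clone 2 and 42 to 43 lower in clone 2 than in clone 1. NUSAP1 and PRC1 are limited by low counts, 1281 and 969 over all libraries, and the reason for these was not tested.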
